A study of Mus musculus with 12 samples.

Results

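A panel of 39 p53 target genes was followed in blood stem and progenitor cells of 4 mouse genotypes, out of 20696 genes with at least 1 read. The panel is a list of textbook targets, of which 11 members act in cell cycle arrest or feedback on p53, 15 in cell death, 5 in DNA repair or nucleotide supply, 6 in metabolism or redox control, and 2 act outside the cell. All 39 passed the filter on low counts and were tested. The cells were Flk2-negative Lin-Sca-1+Kit+ cells sorted from bone marrow, with 3 libraries for each genotype and a separate mouse number on every library. Wild-type mice carried neither change. Mdmx-Tg mice carried an Mdmx transgene. Pu.1-URE-/- mice were homozygous for loss of an upstream regulatory element (URE) of Spi1, which encodes the transcription factor PU.1, and Mdmx-Tg/Pu.1-URE-/- mice carried the transgene and lacked the element. The transgene's promoter, the number of founder lines, and the age of the mice are not given in the sources used here. The design asks whether the transgene moves p53 targets in mice with the element and in mice without it.

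The protein p53 is a transcription factor that is held at a low level in unstressed cells and accumulates after DNA damage and other stress. It binds response elements made of a pair of 10-base half-sites near its target genes, whose products stop the cell cycle, start apoptosis, repair DNA or change metabolism. Mdm2 marks p53 for degradation and is itself a p53 target, while Mdmx, encoded by Mdm4, binds the activation domain of p53 and holds back its activity. In the blood stem cell compartment p53 is known for limiting proliferation and removing damaged cells.

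A promoter table from RefSeq (build GRCm38.p6), running from 250 bases before to 50 bases after each start site, held 30 of the 39 members. It held no entry for Zmat3, Pmaip1, Tnfrsf10b, Perp, Trp53inp1, Xpc, Ddb2, Rrm2b or Thbs1. The windows were searched for the 20-base p53 response element, 2 adjacent half-sites with no spacer, which reads the same on both strands. The C and G at the core of each half-site were held fixed and up to 3 mismatches were allowed elsewhere. Counted per gene over all its windows, such a match stood in 6 of the 30 members (20%) and in 441 of all 27025 genes (1.63%). With at most 1 mismatch it stood in Cdkn1a and Ccng1 only among the 30, and in 22 of all genes (0.0814%). At least 1 full half-site stood in 10 of 30 members (33.3%), beside 9.55% of all genes. The 6 matches are shown because these genes are taken up below. Capitals mark the 20 matched bases, each line reads 5′ to 3′ on the gene's own strand, and a match describes the letters, not binding.
Cdkn1a: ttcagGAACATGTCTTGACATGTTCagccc
Ccng1: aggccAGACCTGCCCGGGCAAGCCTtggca
Tigar: gcggcGGTCTAGCTCTGGCAAGACTccagg
Bbc3: cccgaCTGCAAGCCCCGACTTGTCCccagc
Aen: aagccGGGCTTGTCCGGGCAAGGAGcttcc
Sesn1: ccttcAAGCTTGTTTTTGCTGGCCTggtcc
The Cdkn1a line lies at chr17:29090923-29090952 on the plus strand, and 31 bases separate the match from the start site. The Ccng1 line lies at chr11:40755457-40755486 on the minus strand, with the match 175 bases before the start site. The other 4 carried 3 mismatches each. They lie at chr6:127109741-127109770 (Tigar, minus strand), chr7:16309481-16309510 (Bbc3, plus strand), chr7:78895932-78895961 (Aen, plus strand, beginning 10 bases after the start site) and chr10:41887261-41887290 (Sesn1, plus strand).

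The libraries held 47271286 to 55067735 estimated reads, and 15012 genes were tested. Values below are CPM, read counts scaled to 1000000 reads of effective library size, unless another scale is named. Libraries of the same genotype differed widely, with a biological coefficient of variation of 0.796. An alternative fit left out 3 doubted libraries (Wild-type 1, Mdmx-Tg 2 and, of the mice with both changes, Mdmx-Tg/Pu.1-URE-/- 3). No measure is given here for that choice, and other libraries also differed from their groups. Immunoglobulin genes took 0.144% to 33.2% of the reads of a library. The markers that the sort selects for were present, with Kit at 164.7 to 327.8 CPM and Ly6a (Sca-1) at 15 to 97.2 CPM. RNA of Flt3 (Flk2), which the sort selects against, was also found, at 5.82 to 53.7 CPM. Neutrophil markers (10 genes) summed to 3.30 to 18.1 CPM in the 6 libraries with the element and to 24050 to 93480 CPM in the 6 without it. Y-linked genes (4 genes) summed to 214.5 CPM in Wild-type 2 and to 199.9 and 222 CPM in Mdmx-Tg/Pu.1-URE-/- 1 and 3, and to 1.88 to 5.70 CPM in the other 9 libraries, so libraries with a male-type level were unevenly spread over the genotypes. The number of members called was 0 for each transgene test both with and without Y-linked expression as a covariate. A count that was already 0 cannot show whether sex matters there. In such bulk samples, fewer cells of a type and less RNA per cell cannot be told apart.

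The transgene was visible in every library labelled with it. Mdm4 measured 77.9, 70.9 and 35.8 CPM in Wild-type, against 535, 414 and 163 CPM in Mdmx-Tg. It measured 93.9, 56.2 and 90.3 CPM in Pu.1-URE-/- and 353, 163 and 210 CPM in Mdmx-Tg/Pu.1-URE-/-. All 6 transgenic libraries lay above all 6 others, although the edgeR quasi-likelihood test with Benjamini-Hochberg adjustment over all genes gave an adjusted p of 0.259 with the element and 0.406 without it. Trp53 itself, the p53 gene, ran from 160.5 to 416 CPM, and Mdm2 ran from 33.3 to 77.3 CPM, with overlap between transgenic and other libraries. Spi1 measured 38.0, 5.34 and 8.08 CPM in Wild-type mice, 21.6, 13.5 and 3.69 CPM in Mdmx-Tg mice, 8.73, 8.73 and 23.9 CPM in Pu.1-URE-/-, and 3.48, 1.84 and 0.0198 CPM in Mdmx-Tg/Pu.1-URE-/-. The Spi1 values of Pu.1-URE-/- lay within those of Wild-type.

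Levels between members were compared per length, in TPM, which scales counts by transcript length and then by library. Bax, which opens the mitochondrial outer membrane in apoptosis, was the most abundant at a mean of 144 TPM over the 12 libraries (81.8 to 251 TPM). Rchy1, a ubiquitin ligase that acts on p53, followed at 88.9 TPM. The repair gene Xpc stood at 50.6 TPM with a range of 3.59 to 136 TPM, and the nuclease gene Aen at 42.4 TPM. Cdkn1a, the cyclin-dependent kinase inhibitor p21, ranked eighth at 15.3 TPM and ranged from 2.86 to 62.1 TPM. The least abundant were Pmaip1 (0.642 TPM), Plk3 (0.473 TPM), Zmat3 (0.281 TPM) and Eda2r (0.199 TPM). Members that signal arrest or death were thus spread over nearly the whole range of levels, and neighbours in this order overlapped across libraries.

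**Figure D1:**
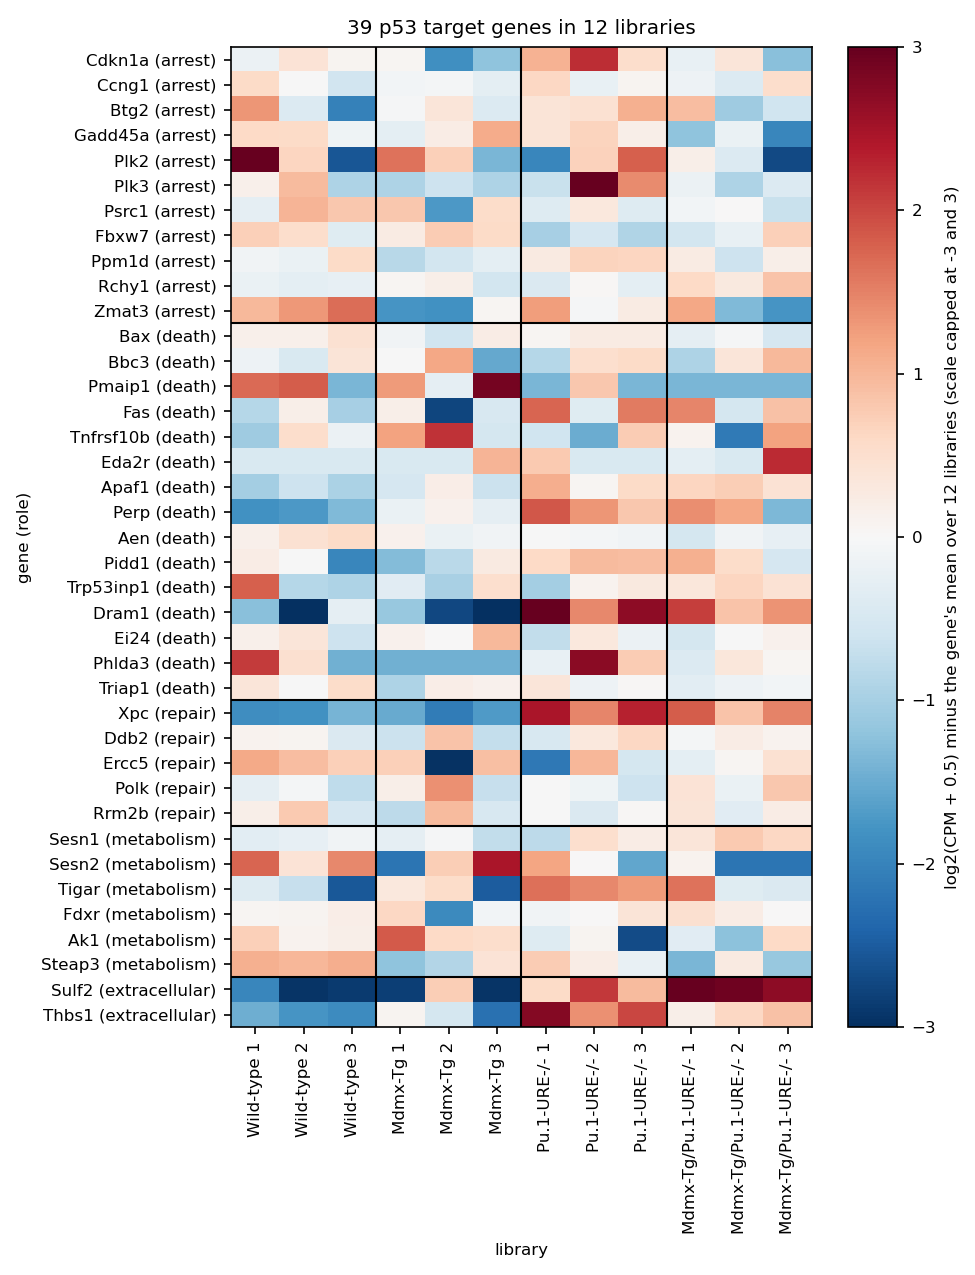
Level of each of the 39 p53 target genes (rows, ordered by role) in each of the 12 libraries (columns, grouped by genotype), as log2(CPM + 0.5) minus the gene's own mean and limited to 3 in either direction. Xpc, Thbs1 and Dram1 are higher in all 6 libraries without the Spi1 element, and most other rows differ between libraries of a genotype as much as between genotypes.

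In mice with the element, no member passed the test for the transgene, and no gene of all 15012 did (0%). At an unadjusted p under 0.05 stood 4 of 39 members (10.3%), beside 1576 of all genes (10.5%). DESeq2 called 1 member, Phlda3, and 329 of all genes (2.19%). Of the 39, 16 had values above 0 on the log2 scale and 23 below, and the median change was -0.14 beside 0.00 for all genes. That median was 0.19 without Wild-type 1 and 0.18 without the 3 doubted libraries, so its sign rests on Wild-type 1. In CPM the 3 libraries of each group did not overlap for 5 members (1 higher, Perp, and 4 lower, Ppm1d, Zmat3, Aen and Steap3), beside 13.7% of all genes (6.61% higher and 7.05% lower). In TPM the groups of Ppm1d, Aen and Steap3 overlapped.

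In mice without the element, again no member and no gene of all (0%) passed the edgeR test. At an unadjusted p under 0.05 stood 7 of 39 members (17.9%), beside 1601 of all genes (10.7%). DESeq2 called 2 members, Pmaip1 (lower) and Rchy1 (higher, adjusted p = 0.0494), and 329 of all genes (2.19%). The log2 change was above 0 in 14 members and below 0 in 25, with a median of -0.28 beside 0.01 for all genes. The groups did not overlap for 8 members, beside 18.8% of all genes (9.89% higher and 8.95% lower). Rchy1, Trp53inp1 and Sulf2 were higher with the transgene, and Cdkn1a, Gadd45a, Ppm1d, Bax and Thbs1 were lower. These are CPM, and in TPM the groups of Ppm1d overlapped. Several marker lists also had values below 0 in this comparison, with no edgeR call among them. These were granulocyte-monocyte progenitor markers (8 of 8, median log2 change -1.08), neutrophil markers (8 of 8 tested, median -1.25), cell handling genes (7 of 7 tested, median -1.29) and erythroid markers (6 of 6, median -0.99). Their part in the members' values was not tested.

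The transgene's direction was the same in both backgrounds for 27 of 39 members (69.2%), beside 59.9% of all genes. The 2 comparisons share no library. Lower values in both were seen for 18 members (46.2%), beside 29.2% of all genes, and higher values in both for 9 members (23.1%), beside 30.7%. Among the 18 were Cdkn1a, Ccng1, Btg2, Ppm1d and Zmat3 of the arrest group and Bax, Aen, Phlda3 and Triap1 of the death group. The 9 were Fbxw7, Rchy1, Bbc3, Tnfrsf10b, Eda2r, Ei24, Polk, Ak1 and Sulf2. These counts of direction take no account of the size of a change, and the Ccng1 intervals span 0 in both backgrounds. Averaged over both backgrounds, edgeR called no member and no gene of all (0%). There, 9 of 39 members (23.1%) stood at an unadjusted p under 0.05, 7 of them lower, beside 16.3% of all genes. DESeq2 called 4 members in the average, all lower (Cdkn1a, Phlda3, Pmaip1 and Steap3), beside 1016 of all genes (6.77%). The Phlda3 and Pmaip1 calls each involve a genotype without any read of the gene, so the size of their average cannot be read. For Phlda3 that genotype is Mdmx-Tg, and for Pmaip1 it is Mdmx-Tg/Pu.1-URE-/-. Pmaip1 was not lower in both backgrounds, with an edgeR log2 change of 0.65 with the element. Ppm1d alone was lower without overlap in CPM in both backgrounds at once (1 of 39), beside 3.15% of all genes in either direction. In TPM the Ppm1d groups overlapped in both.

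**Figure D2:**
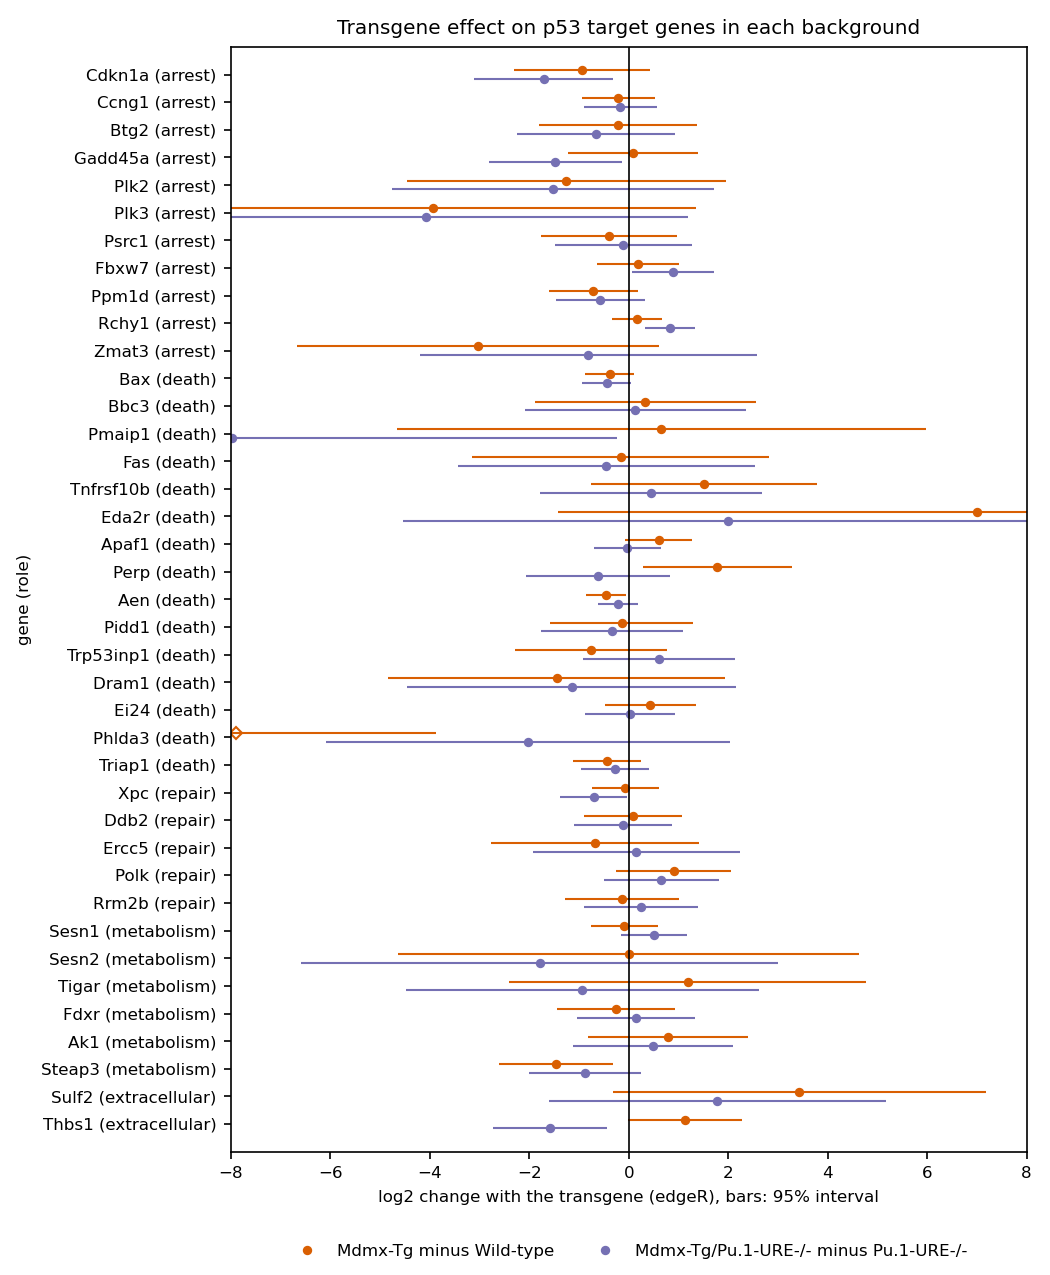
Log2 change with the Mdmx transgene for each of the 39 p53 target genes (rows, with role) in mice with the Spi1 element (orange) and without it (purple); points are edgeR estimates, bars are 95% intervals and the axis is cut at -8 and 8. The open diamond marks Phlda3, whose estimate lies off the axis, and the points of Phlda3 (orange), Eda2r (orange) and Pmaip1 (purple) come from a group with no reads; most of the other intervals span 0.

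Among the 11 arrest and feedback genes, 8 had values below 0 with the transgene in mice with the element (median log2 change -0.40) and 9 in mice without it (median -0.66). Cdkn1a (chr17:29090976-29100727, plus strand) measured 10.9, 16.5 and 13.1 CPM in Wild-type, against 12.95, 3.12 and 5.04 CPM in Mdmx-Tg. It measured 25.9, 59.7 and 18.1 CPM in Pu.1-URE-/- and 10.5, 16.1 and 4.90 CPM in Mdmx-Tg/Pu.1-URE-/-. The groups overlapped in mice with the element, through Mdmx-Tg 1, and did not overlap in mice without it. The means were 34.5 ± 22.1 CPM in Pu.1-URE-/- and 10.5 ± 5.62 CPM in Mdmx-Tg/Pu.1-URE-/- (SD, n = 3 each), a log2 change of -1.72 ± 0.63 (SE, 95% interval -3.11 to -0.32, edgeR unadjusted p = 0.0204, adjusted p = 0.413). In mice with the element the change was -0.94 ± 0.62 (adjusted p = 0.646), and the average over both was -1.33 ± 0.44 (adjusted p = 0.190). DESeq2 gave an adjusted p of 0.0417 for that average. The difference between the backgrounds was -0.78 ± 0.88 on the log2 scale, with an edgeR unadjusted p of 0.394.

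The files also split Cdkn1a into transcripts, and these were looked at after the gene's values were seen, so they are given as a description. Shown here are the 100 bases directly before the start site of the promoter window (chr17:29090879-29090978, plus strand, GRCm38.p6), with the matched p53 element in capitals.
Cdkn1a upstream: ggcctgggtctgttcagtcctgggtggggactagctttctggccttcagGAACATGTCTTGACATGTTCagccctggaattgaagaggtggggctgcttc
The next base, 29090979, is the first base of the annotated transcript Cdkn1a-202, which has 3 exons and a first exon of 123 bases. Cdkn1a-202 was assigned 43.7, 0 and 82.5 estimated reads in Wild-type and 224, 1053 and 155 in Pu.1-URE-/-. It was assigned 0 reads in each of the 3 Mdmx-Tg and 3 Mdmx-Tg/Pu.1-URE-/- libraries. Reads were thus assigned to it in 5 of 6 libraries without the transgene and in 0 of 6 with it. The whole gene had 482 to 3392 reads in the libraries without the transgene and 159 to 867 in those with it. Wild-type 2 had 911, with none assigned to Cdkn1a-202. How many of all transcripts split between the libraries in this way was not counted.

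Cdkn1a-201, which starts downstream at 29093769, was assigned 85.3, 215 and 314 reads in Wild-type, 150, 2 and 31.6 in Mdmx-Tg, 639, 1636 and 370 in Pu.1-URE-/-, and 178, 430 and 0 in Mdmx-Tg/Pu.1-URE-/-. Cdkn1a-203, which starts at 29097900, was assigned reads in every library, from 157 to 701. It made up 20.7% to 42.0% of the gene's reads in Pu.1-URE-/- and 50.1% to 100% in Mdmx-Tg/Pu.1-URE-/-. Among mice without the element, the transgenic libraries were thus lower mainly in Cdkn1a-201 and Cdkn1a-202. The transcripts share later exons, and Salmon divides shared reads between them by estimate. The reads assigned to Cdkn1a-202 therefore need not include its first exon.

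**Figure D3:**
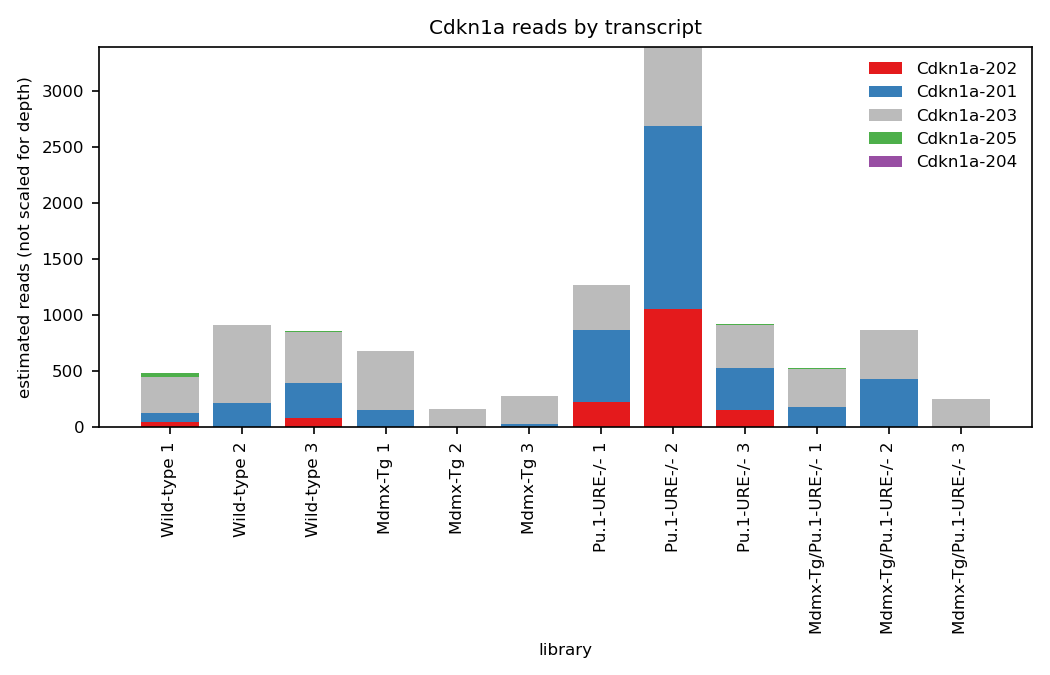
Estimated reads of Cdkn1a in each of the 12 libraries (bars), stacked by annotated transcript (colours) and not scaled for depth, which differed little between libraries. Cdkn1a-202 (red) has reads in 5 of the 6 libraries without the transgene and in none of the 6 with it. Its annotated start lies just after the p53 element match. Cdkn1a-203 (grey) has reads in all 12. The transcripts share later exons, so Salmon's split between them is an estimate, and reads of Cdkn1a-202 need not include its first exon.

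Ccng1, cyclin G1, whose promoter held the other close match to the element, measured 98.4, 65.1 and 43.9 CPM in Wild-type, against 62.1, 63.3 and 53.8 CPM in Mdmx-Tg. It measured 101.7, 56.5 and 69.2 CPM in Pu.1-URE-/- and 58.6, 49.4 and 94.4 CPM in Mdmx-Tg/Pu.1-URE-/-. The groups overlapped in both backgrounds. The log2 change was -0.21 with the element (95% interval -0.95 to 0.53) and -0.17 without it (-0.91 to 0.57), and neither passed the edgeR test (adjusted p = 0.905 and 0.913). The Cdkn1a estimate in mice without the element lies outside both intervals, but its own 95% interval overlaps both. These genes were not tested against each other.

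Ppm1d, the phosphatase Wip1 that switches p53 signalling off, measured 9.24, 8.69 and 15.02 CPM in Wild-type, against 5.42, 6.61 and 8.05 CPM in Mdmx-Tg. It measured 12.1, 16.2 and 16.1 CPM in Pu.1-URE-/- and 12.04, 6.38 and 11.5 CPM in Mdmx-Tg/Pu.1-URE-/-. In CPM every transgenic library lay below every library of the matching background, by a narrow margin in each. In TPM the groups overlapped in both backgrounds. Wild-type 1 stood at 1.755 TPM, below the Mdmx-Tg libraries at 2.25, 2.18 and 2.67 TPM. Pu.1-URE-/- 1 stood at 4.43 TPM, below Mdmx-Tg/Pu.1-URE-/- 1 at 5.095 TPM. The log2 changes were -0.71 and -0.57 (edgeR adjusted p = 0.569 and 0.652).

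Zmat3, a zinc finger RNA-binding protein, measured 3.23, 4.14 and 5.60 CPM in Wild-type, against 0.0575, 0.0392 and 1.47 CPM in Mdmx-Tg. It measured 4.03, 1.36 and 1.75 CPM in Pu.1-URE-/- and 3.74, 0.260 and 0.0595 CPM in Mdmx-Tg/Pu.1-URE-/-. The 3 Wild-type libraries were all higher than the Mdmx-Tg libraries, while the groups without the element overlapped through Mdmx-Tg/Pu.1-URE-/- 1. The change with the element was -3.04 ± 1.66 on the log2 scale (edgeR adjusted p = 0.548).

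Gadd45a, a stress-induced growth arrest gene, measured 10.8, 10.7 and 6.36 CPM in Wild-type, against 5.63, 8.24 and 15.6 CPM in Mdmx-Tg. It measured 9.26, 11.3 and 7.89 CPM in Pu.1-URE-/- and 2.75, 6.05 and 1.43 CPM in Mdmx-Tg/Pu.1-URE-/-. The transgenic libraries were lower without overlap only in mice without the element, where the log2 change was -1.48 ± 0.61 (edgeR adjusted p = 0.436). The test of the difference between backgrounds gave -1.56 ± 0.84 with an unadjusted p of 0.0912.

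The ubiquitin ligase gene Rchy1 stood the other way. Its levels were 106, 99.8 and 103 CPM in Wild-type mice, 127, 137 and 82.7 CPM in Mdmx-Tg mice, 90.3, 126 and 99.03 CPM in Pu.1-URE-/-, and 185, 149 and 222 CPM in Mdmx-Tg/Pu.1-URE-/-. The 3 libraries with both changes were higher than the other 9. The change in mice without the element was 0.82 ± 0.23 on the log2 scale (95% interval 0.32 to 1.32, edgeR unadjusted p = 0.00414, adjusted p = 0.406).

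Fbxw7, the substrate-binding part of a ubiquitin ligase of cyclin E and Myc, measured 45.3, 39.6 and 21.4 CPM in Wild-type mice, 32.8, 47.0 and 41.01 CPM in Mdmx-Tg mice, 13.6, 19.2 and 14.4 CPM in Pu.1-URE-/-, and 18.5, 23.6 and 45.6 CPM in Mdmx-Tg/Pu.1-URE-/-. Its transgene change without the element was 0.89 on the log2 scale (edgeR adjusted p = 0.447), and the groups overlapped. Of the other 4 arrest genes, Btg2 ran from 7.85 to 85.8 CPM, Plk2 from 0.416 to 60.6 CPM, Plk3 from 0 to 7.39 CPM and Psrc1 from 2.67 to 20.7 CPM, with overlap in both backgrounds. Btg2 and Plk2 are also immediate early genes of cell handling. Both were highest in Wild-type 1 (85.8 and 60.6 CPM) and low in Wild-type 3 (7.85 and 0.520 CPM), and a list of 8 handling genes summed to 1428 and 178 CPM in those libraries. In Mdmx-Tg the handling sum was 2003, 949 and 225 CPM. Plk2 fell in that order (18.1, 9.34 and 1.83 CPM), while Btg2 did not (33.1, 43.3 and 25.4 CPM). In Pu.1-URE-/- the sum was 765, 1285 and 1766 CPM. There Btg2 measured 44.5, 46.3 and 71.55 CPM, and Plk2 1.04, 9.17 and 20.4 CPM. In Mdmx-Tg/Pu.1-URE-/- the sum was 842, 168 and 338 CPM. Btg2 measured 64.5, 15.9 and 22.3 CPM in that group, and Plk2 6.23, 3.98 and 0.416 CPM. The part of handling in these values was not tested.

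**Figure D4:**
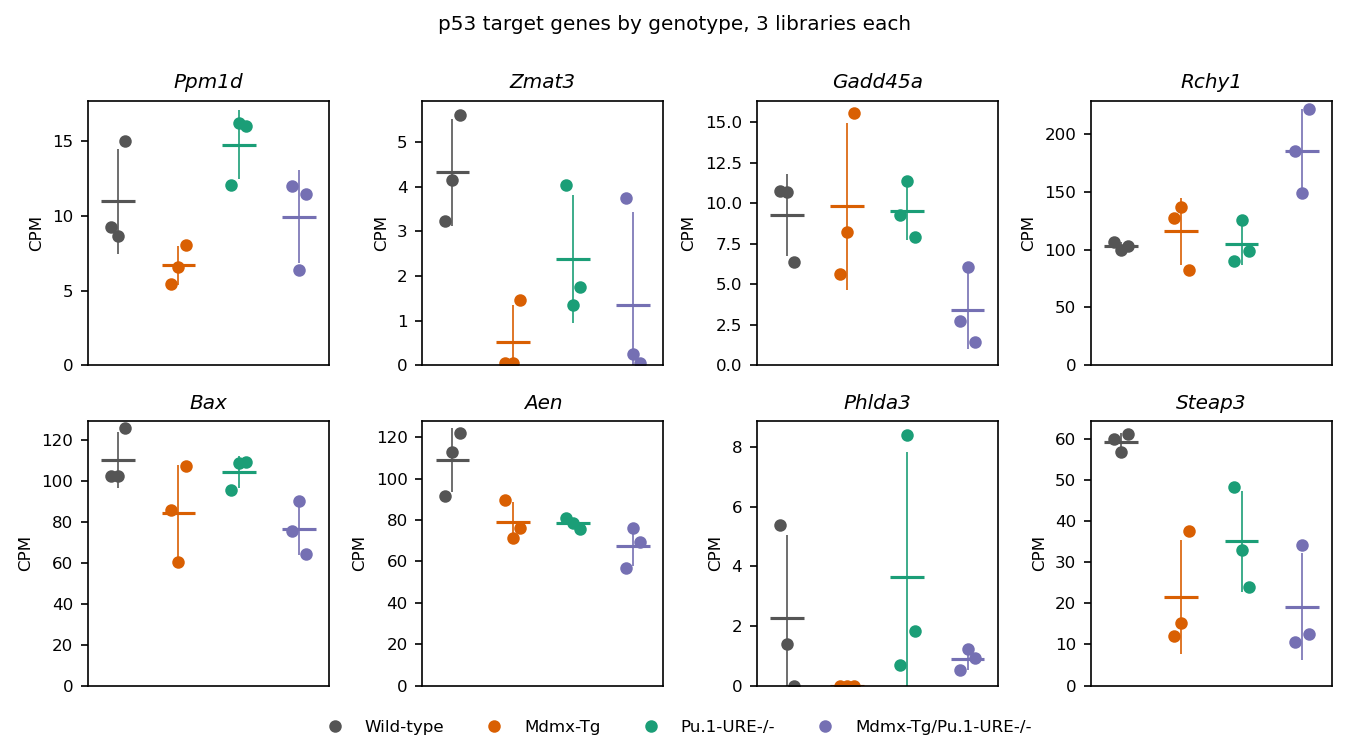
CPM of 8 p53 target genes in each library (dots), with the mean (line) and SD (bar) of each genotype, on linear axes that start at 0. Ppm1d is lower in every transgenic library than in the libraries of the matching background, and Rchy1 is highest in the 3 Mdmx-Tg/Pu.1-URE-/- libraries.

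Among the 15 death genes, 8 had values below 0 with the transgene in mice with the element (median log2 change -0.15) and 10 in mice without it (median -0.28), and none passed the edgeR test. Bax measured 102, 102 and 126 CPM in Wild-type, against 85.6, 60.3 and 107 CPM in Mdmx-Tg. It measured 95.5, 109 and 109 CPM in Pu.1-URE-/- and 75.6, 89.98 and 64.5 CPM in Mdmx-Tg/Pu.1-URE-/-. Groups overlapped only with the element, through Mdmx-Tg 3. The log2 changes were -0.39 ± 0.22 and -0.45 ± 0.22, close to each other in size, and their average was -0.42 ± 0.16 (95% interval -0.76 to -0.07, edgeR unadjusted p = 0.0229, adjusted p = 0.230).

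Aen, an apoptosis-enhancing nuclease, measured 91.6, 113 and 122 CPM in Wild-type, against 89.6, 71.5 and 76.3 CPM in Mdmx-Tg. It measured 81.0, 78.5 and 75.7 CPM in Pu.1-URE-/- and 57.0, 76.3 and 69.2 CPM in Mdmx-Tg/Pu.1-URE-/-. In CPM the Wild-type libraries were the highest of the 4 groups, narrowly above Mdmx-Tg 1. In TPM the groups with the element overlapped. Wild-type 1 was there the lowest of the 12 libraries at 22.7 TPM, against 34.4 to 51.9 TPM in Mdmx-Tg. The change with the element was -0.46 ± 0.18 on the log2 scale (edgeR unadjusted p = 0.0265, adjusted p = 0.427), and without it -0.22 (adjusted p = 0.716).

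Phlda3, a pleckstrin-homology protein that competes with Akt for membrane lipids, was low throughout. It measured 5.38, 1.40 and 0 CPM in Wild-type and had no read in the 3 Mdmx-Tg libraries. It measured 0.675, 8.41 and 1.83 CPM in Pu.1-URE-/- and 0.523, 1.23 and 0.912 CPM in Mdmx-Tg/Pu.1-URE-/-. With 3 reads over the Mdmx-Tg group taken as the floor, it was at least 101-fold lower than in Wild-type, but the Wild-type group holds a library at 0 as well. The edgeR test gave an unadjusted p of 0.00470 and an adjusted p of 0.367, and DESeq2 an adjusted p of 0.00126.

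Bbc3 (Puma) and Pmaip1 (Noxa) encode BH3-only proteins that trigger the mitochondrial death pathway. Bbc3 measured 1.92, 1.49 and 3.06 CPM in Wild-type mice, 2.18, 5.53 and 0.430 CPM in Mdmx-Tg mice, 1.00, 3.35 and 3.55 CPM in Pu.1-URE-/-, and 0.925, 2.96 and 4.78 CPM in Mdmx-Tg/Pu.1-URE-/-. Its groups overlapped in both backgrounds, with log2 changes of 0.33 and 0.13. Pmaip1 measured 3.68, 4.05 and 0 CPM in Wild-type mice, 2.61, 0.569 and 8.99 CPM in Mdmx-Tg mice, 0, 1.78 and 0 CPM in Pu.1-URE-/-, and 0 CPM in all 3 Mdmx-Tg/Pu.1-URE-/- libraries. The Pmaip1 fold in mice without the element, at least 33.1-fold lower against the same floor, rests on Pu.1-URE-/- 2 alone.

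Perp, a membrane protein of cell junctions and apoptosis, measured 1.24, 1.34 and 1.93 CPM in Wild-type, against 4.83, 6.12 and 4.54 CPM in Mdmx-Tg. It was the 1 member higher without overlap in Mdmx-Tg, by 1.78 ± 0.68 on the log2 scale (edgeR unadjusted p = 0.0240, adjusted p = 0.426). In mice without the element it measured 21.7, 14.9 and 10.2 CPM, and 15.5, 13.2 and 1.88 CPM with the transgene, where the change was -0.62. The difference between the backgrounds was -2.39 (unadjusted p = 0.0278, adjusted p = 0.843).

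Trp53inp1, an autophagy and p53 cofactor gene, measured 81.6, 12.5 and 11.96 CPM in Wild-type mice, 18.3, 11.6 and 32.8 CPM in Mdmx-Tg mice, 11.1, 24.8 and 28.6 CPM in Pu.1-URE-/-, and 29.4, 36.6 and 31.6 CPM in Mdmx-Tg/Pu.1-URE-/-. Without the element the transgenic libraries were just above the others, with a log2 change of 0.60 (edgeR adjusted p = 0.822). The death receptor genes varied within genotypes: Fas ran from 0 to 10.8 CPM, Tnfrsf10b from 0.763 to 24.1 CPM and Eda2r from 0 to 2.74 CPM. Eda2r had reads in 4 of the 12 libraries, and none in Wild-type. Pidd1, Dram1, Ei24, Triap1 and Apaf1 overlapped between transgenic and other libraries in both backgrounds.

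The 5 repair genes had a median log2 change of -0.07 in mice with the element, over a range of -0.68 to 0.90, and of 0.15 in mice without it. Ddb2, which recognises ultraviolet lesions, changed by 0.08 and -0.12, and the ribonucleotide reductase subunit gene Rrm2b by -0.14 and 0.25. Polk, a translesion polymerase, changed by 0.90 and 0.65, and the nuclease gene Ercc5 by -0.68 and 0.15. None of these 4 passed the edgeR test in either background. Xpc, the lesion sensor of nucleotide excision repair, is described with the loss of the element.

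Of the 6 metabolic genes, Steap3, a metalloreductase of iron uptake, was the only one with an unadjusted p under 0.05 for the transgene, in mice with the element. Steap3 measured 60.0, 56.9 and 61.0 CPM in Wild-type, against 12.03, 15.1 and 37.5 CPM in Mdmx-Tg. It measured 48.2, 33.0 and 24.0 CPM in Pu.1-URE-/- and 10.6, 34.1 and 12.6 CPM in Mdmx-Tg/Pu.1-URE-/-. In CPM the 3 Wild-type libraries were alike and higher than every other library. In TPM they were not alike, at 11.9, 18.9 and 30.9 TPM. Wild-type 1 there lay below Mdmx-Tg 3 (13.9 TPM) and below Pu.1-URE-/- 1 and 2 (18.0 and 16.2 TPM). The means with the element were 59.3 ± 2.17 and 21.5 ± 13.9 CPM (SD, n = 3 each), a log2 change of -1.46 ± 0.52 (edgeR unadjusted p = 0.0165, adjusted p = 0.414). The average over both backgrounds was -1.17 ± 0.36 (adjusted p = 0.169), and it passed the edgeR test without Mdmx-Tg 3 (-1.51, adjusted p = 0.0477) and with DESeq2 (adjusted p = 0.0265). Steap3 serves iron uptake in erythroid precursors, and erythroid markers (6 genes, none at 0 reads in any group) summed to 1794 to 2762 CPM in Wild-type mice, 557 to 1896 CPM in Mdmx-Tg mice, 362 to 1026 CPM in Pu.1-URE-/- and 22.1 to 823 CPM in Mdmx-Tg/Pu.1-URE-/-. Their part in the Steap3 values was not tested. Sesn1, an antioxidant sestrin, ran from 39.6 to 118 CPM, and the other 4 metabolic genes (Sesn2, Tigar, Fdxr and Ak1) overlapped between the groups in both backgrounds.

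The 2 genes that act outside the cell both had values above 0 with the transgene in mice with the element, and opposite signs in mice without it. Neither passed the edgeR test. Sulf2, a heparan sulfate sulfatase, measured 0.519, 0.0182 and 0.0459 CPM in Wild-type, against 0.0575, 6.06 and 0.0179 CPM in Mdmx-Tg, so its log2 change of 3.43 with the element rests on Mdmx-Tg 2 and was -2.26 without that library. It measured 5.40, 16.7 and 7.18 CPM in Pu.1-URE-/- and 45.9, 29.4 and 25.2 CPM in Mdmx-Tg/Pu.1-URE-/-, higher without overlap but with an edgeR adjusted p of 0.735. Thbs1, the antiangiogenic matrix protein thrombospondin 1, measured 8.49, 6.86 and 6.26 CPM in Wild-type, against 25.8, 16.8 and 4.79 CPM in Mdmx-Tg. It measured 168, 64.1 and 98.7 CPM in Pu.1-URE-/- and 27.5, 38.0 and 45.1 CPM in Mdmx-Tg/Pu.1-URE-/-. Groups overlapped only with the element. The transgene change was 1.13 with the element (adjusted p = 0.480) and -1.58 ± 0.52 without it (unadjusted p = 0.0114, adjusted p = 0.406).

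The test of whether the transgene acted differently in the 2 backgrounds called no member and no gene of all (0%) with edgeR. At an unadjusted p under 0.05 stood 3 of 39 members (7.69%), beside 871 of all genes (5.8%). DESeq2 called Pmaip1 and Thbs1, beside 194 of all genes (1.29%). The Thbs1 difference was -2.71 ± 0.74 on the log2 scale (edgeR unadjusted p = 0.00353, adjusted p = 0.767, DESeq2 adjusted p = 0.0201).

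The rest of the pathway gave no edgeR call for the transgene. Of 19 tested p53 regulators, among them Mdm4, Mdm2 and Trp53, 9 had values above 0 in mice with the element and 13 in mice without it. Of 10 tested further p53 targets, 4 had values above 0 in each background. In mice without the element, 5 of these 10 stood at an unadjusted p under 0.05 (4 lower) and 5 did not overlap (4 lower), beside 10.7% and 18.8% of all genes. In mice with the element the counts were 1 and 2 of 10, beside 10.5% and 13.7% of all genes. Of 12 cell cycle genes that p53 represses through p21 and the DREAM complex, 2 had values above 0 and 10 below in each background, with medians of -0.30 and -0.38. Of all genes, 48.85% and 49.01% had values below 0. Mdm2 is both a regulator and a further target here, and Chek1 both a regulator and a DREAM-repressed gene.

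Loss of the Spi1 element gave more edgeR calls in the panel than the transgene did, though the counts were not tested against each other. Without the transgene, Pu.1-URE-/- against Wild-type, 4 members rose and none fell, beside 4.71% of all genes called (3.84% higher and 0.866% lower). Among transgenic mice 1 member rose, Xpc, beside 2.32% of all genes called (1.67% higher and 0.646% lower). These comparisons use the same 12 libraries as the transgene comparisons above, so the values of a gene in both are not independent. Non-overlapping groups were seen for 13 members without the transgene (9 higher and 4 lower), beside 29.7% of all genes (15.9% higher and 13.7% lower). They were seen for 9 members with the transgene (8 higher and 1 lower), beside 19.2% (11.9% higher and 7.25% lower). Higher without overlap in CPM in both comparisons were Xpc, Thbs1, Apaf1, Dram1 and Sulf2. Cdkn1a, Perp, Pidd1 and Tigar did so without the transgene, and Rchy1, Sesn1 and Phlda3 with it. At an unadjusted p under 0.05 stood 8 and 10 of the 39 (20.5% and 25.6%), beside 19.8% and 16.9% of all genes. The share of members without overlap was thus close to that of all genes in the first comparison. The medians of the 39 were 0.11 and 0.18, beside -0.03 and 0.03 for all genes.

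Xpc (chr6:91489305-91515888, minus strand) measured 24.1, 25.3 and 33.9 CPM in Wild-type, against 31.3, 20.6 and 27.4 CPM in Mdmx-Tg. It measured 495, 248 and 450 CPM in Pu.1-URE-/- and 316, 162 and 252 CPM in Mdmx-Tg/Pu.1-URE-/-. All 6 libraries without the element lay far above all 6 with it. Xpc rose 14.3-fold on loss of the element without the transgene, from 27.8 ± 5.36 to 398 ± 131 CPM (SD, n = 3 each, log2 change 3.84 ± 0.35, edgeR adjusted p = 0.000375). It rose 9.21-fold among transgenic mice, from a mean of 26.4 ± 5.38 CPM (log2 change 3.20 ± 0.34, edgeR adjusted p = 0.000880). The transcript Xpc-201 took 96.1% to 100% of the gene's reads in every library. Within mice without the element the transgene change of Xpc was -0.71 (unadjusted p = 0.0425, adjusted p = 0.459), with overlapping groups.

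Thbs1 (chr2:118111876-118127133, plus strand) rose 15.3-fold without the transgene, from 7.20 ± 1.16 to 110.2 ± 52.8 CPM (log2 change 3.94 ± 0.58, edgeR adjusted p = 0.00331). Among transgenic mice it changed by 1.22 on the log2 scale, short of the threshold (adjusted p = 0.263). Perp (chr10:18845020-18857073, plus strand) rose 10.3-fold without the transgene, from 1.504 ± 0.370 to 15.6 ± 5.80 CPM (log2 change 3.37 ± 0.72, adjusted p = 0.0228), and with it changed by 0.98 (adjusted p = 0.520). The 3 libraries of Pu.1-URE-/- were higher than the 3 of Wild-type for both genes.

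Apaf1 (chr10:90989311-91082770, minus strand), which forms the apoptosome with cytochrome c, measured 14.5, 19.4 and 15.3 CPM in Wild-type, against 21.2, 34.5 and 18.99 CPM in Mdmx-Tg. It measured 65.0, 31.6 and 45.5 CPM in Pu.1-URE-/- and 47.6, 50.8 and 40.8 CPM in Mdmx-Tg/Pu.1-URE-/-. Neither comparison overlapped. Apaf1 rose 2.88-fold without the transgene (log2 change 1.53 ± 0.31, edgeR adjusted p = 0.0187) and changed by 0.90 with it (adjusted p = 0.181). The calls of Apaf1 and Perp were lost on leaving out any of the 3 Wild-type libraries, Pu.1-URE-/- 1 or Pu.1-URE-/- 3, with adjusted p-values up to 0.0922 for Apaf1 and 0.105 for Perp. Xpc and Thbs1 kept their calls when any single library was left out.

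**Figure D5:**
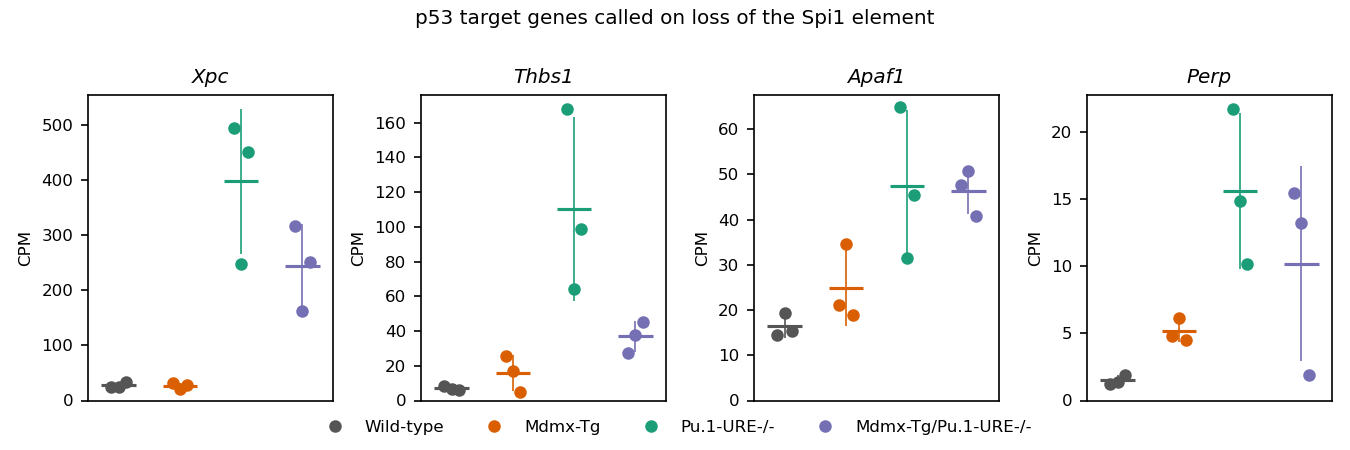
CPM of Xpc, Thbs1, Apaf1 and Perp in each library (dots), with the mean (line) and SD (bar) of each of the 4 genotypes, on linear axes. Xpc is at 162 CPM or more in the libraries without the Spi1 element and at 33.9 CPM or less in those with it, and Thbs1 is higher in Pu.1-URE-/- than in every other group.

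Cell type markers also differed between mice with and without the element. Granulocyte-monocyte progenitor markers (8 genes) summed to 879 to 2571 CPM in the libraries with the element and to 10220 to 53310 CPM in those without it, and neutrophil markers differed as given above, with the granule protease genes Mmp8 and Mmp9 at 0 reads in both groups without the element. Of the 6 T and NK cell markers, Nkg7, a granule gene of cytotoxic cells, ran from 92.4 to 311 CPM with the element and from 1536 to 3942 CPM without it. Cd3e, Cd3g, Cd4 and Cd8a were at 0 to 2.24 CPM in every library, and Klrb1c overlapped. B and plasma cell markers (8 of 9 tested) had values below 0 in 8 of 8 on loss of the element, with median log2 changes of -2.98 without the transgene and -2.19 with it. Stem cell markers (7 genes) summed to 685 to 1409 CPM with the element and to 226 to 778 CPM without it. The sort gate was Lin-negative, which is meant to remove mature cells of these lineages. The part of these cell types in the values of Xpc, Thbs1, Apaf1 and Perp was not tested.

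Other members also stood higher without the element but did not pass the edgeR test. Dram1, a lysosomal autophagy gene, measured 1.33, 0 and 3.14 CPM in Wild-type, against 40.9, 11.4 and 27.7 CPM in Pu.1-URE-/- (adjusted p = 0.202). With the transgene its values were 1.48, 0.157 and 0 CPM in mice with the element, against 18.0, 7.39 and 10.5 CPM in mice without it (adjusted p = 0.228). Sulf2 and Tigar likewise did not overlap in Pu.1-URE-/- against Wild-type. Cdkn1a had a log2 change of 1.36 without the transgene (adjusted p = 0.261). DESeq2 called 7 members without the transgene, adding Sulf2, Dram1 (higher) and Fbxw7 (lower), beside 12.5% of all genes. It called 5 with it, namely Xpc, Dram1, Phlda3 and Sulf2 (higher) and Pmaip1 (lower), beside 8.59% of all genes. Of the 12 DREAM-repressed cell cycle genes, 11 had values above 0 in each comparison and 1 rose in each, the mitotic kinase gene Cdk1 (2.02-fold, adjusted p = 0.0462, and 2.20-fold, adjusted p = 0.0438). None of the p53 regulators or further targets passed the test.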

How the data were processed

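Polyadenylated RNA of 12 sorted cell samples was sequenced. The builds mm10 and GRCm38 and the tools Salmon, FastQC and DESeq2 appear in the submitters' processing notes, and settings are not given in the sources used here. The deposited files, per the file headers, hold estimated counts (Salmon's expected count of reads for each transcript, not normalized) and TPM as the authors computed it. Of 116248 transcripts, 115995 (99.8%) matched GENCODE M21 of GRCm38. Expected counts were added up over each gene's transcripts and rounded, TPM was summed per gene, and CPM was computed with TMM-scaled library sizes.

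Genes were filtered with filterByExpr and tested in 1 fit over the 12 libraries with edgeR 4.0.16 (quasi-likelihood test, Benjamini-Hochberg adjustment over 15012 genes, threshold 0.05) in R 4.3.3, with 6 contrasts. The fit was also run on simulated counts, with large changes in genes above the lowest levels, and its outcome is not given here. That run cannot show how the fit handles small changes or members with few reads. Alternatives used DESeq2 1.42.0, limma 3.58.1 (voom), other scaling, filters and covariates, and fewer libraries. The members, lists and tests were chosen with earlier results of these data known. Values in every library are given for members called in any contrast, the 6 with the smallest p in each transgene test, Cdkn1a, Ccng1, Phlda3, Bax and Bbc3, and members whose groups do not overlap for the transgene. Each library has its own mouse number, but nothing states litters or sort days, so p-values measure the spread between these mice. SE and intervals are from edgeR.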

Additional observations from a re-analysis of the deposited data

How the results depend on the processing

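The numbers of members called by edgeR were 0 for each transgene test, the average and the interaction, 4 for element loss without the transgene and 1 with it. DESeq2 called 1 (with the element), 2 (without it), 4 (average), 2 (interaction), 7 and 5. For element loss without the transgene, 2 were called with the mouse number series as a block. For element loss with the transgene, 2 were called by limma-voom, with only the groups compared, or without the 3 doubted libraries. Leaving out 1 library at a time gave 0 to 0 for each transgene effect, 0 to 1 for the average (Steap3, without Mdmx-Tg 3), 0 to 0 for the interaction, 2 to 5 for element loss without the transgene (5 without Mdmx-Tg 2) and 1 to 2 with it. The Sulf2 transgene effect with the element reversed from 3.43 to -0.15 with the mouse number series as a block and ran from -2.26 (without Mdmx-Tg 2) to 5.86 (without Wild-type 1). Apaf1 also lost its call with a transcript length offset (adjusted p = 0.113), with the mouse number series (0.141) and without the 3 libraries (0.0661), and Perp with voom (0.0706), the mouse number series (0.143) and Y-linked expression as a covariate (0.0566). The cause of these shifts was not tested.

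A replicate block left the counts of members called at 0, 0, 0, 0, 4 and 1. The replicate numbers share only a number: over 18 same-numbered pairs the correlation of deviations ran from -0.153 to 0.0856, none over 0.1, and 4 of 12 libraries correlated best with their own number. Over all genes, the transgene effect with the element went from 0 calls to 109, and the average from 0 to 447, without Mdmx-Tg 3. Element loss without the transgene went from 707 calls to 1881 with DESeq2, 257 with the mouse number series and 299 to 789 without 1 library. With the transgene it went from 348 to 1289, 156 and 136 to 347, to 111 without the 3 libraries and to 90 with the Y-linked covariate. Members near 1 CPM, such as Zmat3, Plk3 and Eda2r, vary too much between 3 libraries for a fold to be read.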
